A study of Mus musculus with 9 samples.

Results

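The 45 genes described here encode proteins that drive cells into mitosis, build the spindle, hold and separate chromosomes and divide the cell. They are the rows of the deposited expression table, 54532 genes in all, that carry the symbols of a list of mitotic cyclins and kinases, kinesins, kinetochore and condensin subunits and cytokinesis proteins. All 45 symbols were found, and all 45 genes passed the filter on low values, an expression level of at least 1 FPKM in at least 3 of the 9 libraries. FPKM counts fragments per length of transcript, so levels can be compared between genes, and per size of the library. Comparison between libraries rests on the authors' library sizes, which relative to the reads of the table itself stood at 0.983 to 0.993 in LPS + H-CDs, 0.928 to 0.935 in LPS and 1.13 to 1.15 in control. The comparisons were also run after rescaling to TPM or to total reads. For the account that follows the genes were sorted into 8 roles in mitosis.

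Poly-A-selected RNA came from RAW 264.7, a macrophage line from mouse ascites with the genotype labelled WT, which divides continuously in culture. The first group received lipopolysaccharide (LPS, 1 µg/ml), the bacterial cell wall component sensed by Toll-like receptor 4, together with H-CDs (400 µg/ml), the supplement tested in a series about a nanozyme with superoxide dismutase activity made from fruit. The second group received LPS alone at that concentration, and the third was left untreated as control; exposure lasted 6 h per the design text. Each group holds 3 libraries, and none of these groups received H-CDs without LPS. The labels do not say whether replicates were separate cultures, so each p-value measures the spread between these libraries, which may be technical.

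Cells enter mitosis when cyclin B and CDK1 become active, and the kinases of the Polo and Aurora families then organise the spindle and the chromosomes. The spindle assembly checkpoint holds back the anaphase-promoting complex until kinetochores are attached to microtubules, after which sister chromatids separate and the cell divides. Messenger RNAs of these genes are high in G2 and M phase and low in resting cells, under control of the DREAM and MuvB complexes, B-MYB and FOXM1, which act through the cell cycle genes homology region and CCAAT boxes near the start of transcription.

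The promoters of the genes show what they share in sequence. RefSeq promoters (GRCm38.p6, 250 bases before to 50 after the annotated start) were given for 37 of the 45 genes, 39 promoters in all, and were searched on both strands for the hexamers TTTGAA and TTCGAA of the homology region and for CCAAT. The stretches printed here run from 100 bases before to 30 bases after the start, 5′ to 3′ on the strand of the gene, and capitals mark every match on either strand, so that TTCAAA and ATTGG are matches read from the other strand. Mki67, Ube2c and Cdca8 are the genes with TTTGAA in the printed stretch and the smallest adjusted p for LPS + H-CDs against LPS, and Fbxo5 and Cdk1, chosen after their values were seen, were called in opposite directions for LPS against control. Plk1 and Ndc80, next in that order, hold the hexamer farther downstream and are not printed.
Mki67 (chr7:135716350-135716479, minus strand): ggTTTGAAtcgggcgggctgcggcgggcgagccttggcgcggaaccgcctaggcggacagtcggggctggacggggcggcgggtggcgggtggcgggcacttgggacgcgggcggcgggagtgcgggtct
Ube2c (chr2:164769829-164769958, plus strand): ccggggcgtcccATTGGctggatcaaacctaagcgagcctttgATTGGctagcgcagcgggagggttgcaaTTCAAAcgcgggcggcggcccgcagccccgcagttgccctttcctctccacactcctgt
Cdca8 (chr4:124936888-124937017, minus strand): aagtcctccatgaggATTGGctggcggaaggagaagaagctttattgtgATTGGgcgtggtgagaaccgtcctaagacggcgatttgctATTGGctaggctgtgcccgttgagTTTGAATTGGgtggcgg
Fbxo5 (chr10:5805436-5805565, minus strand): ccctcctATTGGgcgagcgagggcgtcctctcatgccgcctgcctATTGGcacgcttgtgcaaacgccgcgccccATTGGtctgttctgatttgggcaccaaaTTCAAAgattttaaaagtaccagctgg
Cdk1 (chr10:69352883-69353012, minus strand): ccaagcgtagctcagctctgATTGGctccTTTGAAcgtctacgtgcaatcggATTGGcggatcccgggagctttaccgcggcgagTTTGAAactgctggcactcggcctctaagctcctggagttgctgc
In Cdca8 the hexamer and a CCAAT match overlap in the run TTTGAATTGG. Mki67 has no CCAAT in this stretch, Ube2c has CCAAT matches on the other strand upstream of the hexamer, and Cdk1 carries the hexamer on both sides of a CCAAT match.

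TTTGAA was present in 27 of the 37 genes, in 74.4% of their promoters against 17.9% of all 32851 promoters of the same length. TTCGAA was present in 4 of the 37 genes, in 10.3% of their promoters against 1.56% of all promoters. CCAAT was found in 28 genes, in 76.9% of their promoters against 37.4% of all promoters, and 26 genes held CCAAT together with either hexamer, in 71.8% of their promoters against 7.52%. The hexamer lay close to the start, between the start and 25 bases after it in 30.8% of the 39 promoters against 1.31% of all promoters. In the LPS comparison described later, the median log2 fold change was -0.43 for the 27 genes with TTTGAA, 21 of which fell. It was -0.38 for the 10 without it, 6 of which fell. The order was reversed for the other matches. With either hexamer the median was -0.40 for 29 genes, against -0.42 for the 8 without. For CCAAT it was -0.33 for 28 genes, 19 of which fell, against -0.48 for the 9 without, 8 of which fell. TTCGAA alone gave -0.26 for 4 genes, against -0.43 for the 33 without. These differences were not tested. A match of letters is a description and does not show that a factor binds there.

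**Figure D1:**
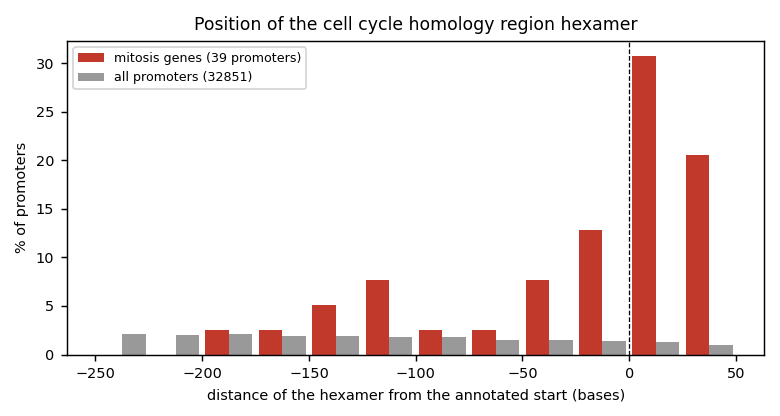
Position of the hexamer TTTGAA in promoters, as the percentage of promoters (y axis) with a match in each window of 25 bases along the distance from the annotated start (x axis, in bases), for the 39 promoters of the mitosis genes (red) and all 32851 promoters (grey). The red bars are highest in the windows just after the start, with 30.8% and 20.5% of promoters, while the grey bars stay at 0.971% to 2.12% of promoters in every window.

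Libraries held 14377161 to 16069968 reads assigned to genes, recovered from the FPKM values, and each mitosis gene had at least 186 reads in every library (Fbxo5) and up to 14511 (Mki67). The library LPS + H-CDs replicate 1 was unlike the others of its group. Chi-square over degrees of freedom was 21.5 and 23.0 for its reads against replicates 2 and 3, and 4.65 for replicate 2 against 3. Between replicates of LPS it was 3.25 to 7.22, and between those of control 9.64 to 9.91. Transcripts of the 13 mitochondrially encoded proteins made up 0.490% of the reads of LPS + H-CDs replicate 1, 1.62% and 1.64% in the other LPS + H-CDs libraries and 1.45 to 1.64% in LPS. The counts and the called genes of the H-CDs comparisons are therefore also given without it. All 10 macrophage markers were above the filter, with a summed level of 3027 to 3161 FPKM in LPS + H-CDs, 3797 to 4167 in LPS and 2846 to 3166 in control. Their share of reads was 0.585 to 0.5997% in LPS + H-CDs, 0.662 to 0.711% in LPS and 0.677 to 0.731% in control, so the order of the groups depends on the scaling. The sum also hides single markers that moved in opposite directions. At a limma adjusted p under 0.05, 5 were higher and 2 lower for LPS against control (28.8% and 26.8% of all tested genes). For LPS + H-CDs against LPS, 1 was higher and 6 lower (6.54% and 9.05% of all tested genes). None of 15 markers of other cell types passed the filter. Their summed level was 1.02 to 1.23 FPKM in LPS + H-CDs, 0.519 to 1.32 in LPS and 0.631 to 0.980 in control, and Ms4a1, Ncr1, Epcam, Hbb-bt and Alb had no read in any library.

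In untreated cells the mitosis genes were expressed over a wide range, from a mean of 4.63 FPKM for Ndc80, a kinetochore subunit that grips microtubules, to 83.0 FPKM for Cdc20, the activator of the anaphase-promoting complex. Mki67, whose product Ki-67 coats mitotic chromosomes and marks dividing cells, followed with 76.0 ± 9.11 FPKM, and Ccnb2 (cyclin B2) and Incenp (the scaffold of the chromosomal passenger complex) stood at 66.9 ± 2.17 and 67.3 ± 2.58 FPKM (SD, n = 3 each). Summed over the 45 genes, expression was 953 to 988 FPKM in LPS + H-CDs, 1037 to 1045 FPKM in LPS and 1324 to 1387 FPKM in control. As a share of reads the sum was 0.429 to 0.447% in LPS + H-CDs, 0.444 to 0.455% in LPS and 0.682 to 0.751% in control. The groups with LPS thus lie below control on both scales, while LPS + H-CDs and LPS are separate in FPKM only and overlap as a share of reads. In RNA from whole cultures, fewer cells in mitosis and less of each RNA per cell cannot be told apart.

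**Figure D2:**
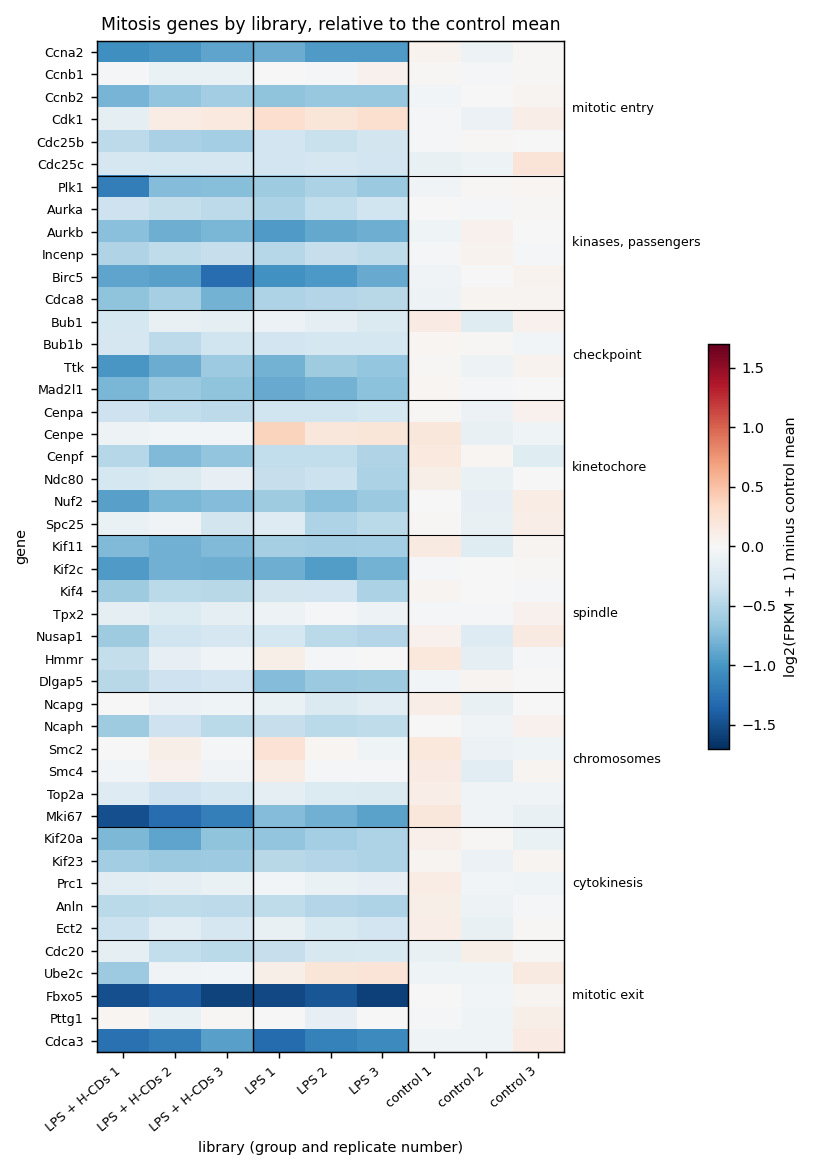
Expression of the 45 mitosis genes (rows, in order of role, named at the right) in the 9 libraries (columns), as log2(FPKM + 1) minus the mean of the 3 control libraries on that scale. Blue cells lie below the control mean and red cells above it; Fbxo5, Cdca3, Ccna2, Birc5 and Mki67 are blue in every LPS + H-CDs and LPS library, whereas Cdk1 and Cenpe are red in the 3 LPS libraries, a direction that turns after rescaling to TPM or total reads.

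LPS against control asks how the mitotic programme responded to the bacterial stimulus alone. Of the 45 genes, 33 fell, 2 rose and 10 did not pass an adjusted p of 0.05, in a limma fit to log2(FPKM + 1) with Benjamini-Hochberg adjustment over the 11707 tested genes. Over all tested genes 26.8% fell and 28.8% rose, whereas 73.3% of the mitosis genes fell and 4.44% rose. Their median log2 fold change was -0.43, against 0.03 over all tested genes, and 38 of 45 values were negative. The LPS and control libraries did not overlap for 32 of the 45 genes with lower values and 1 of the 45 with higher values. Over the 11707 tested genes these were 3595 (30.7%) and 3889 (33.2%). The split over all genes rests on the scaling of the libraries: it was 3372 higher and 3136 lower as deposited, 1676 and 5657 after rescaling to TPM, and 1904 and 5191 after division by total reads. Against the median of all genes the mitosis genes lay 0.45 lower on the log2 scale as deposited, 0.49 lower after rescaling to TPM and 0.46 lower with total reads. By these measures 40, 41 and 41 of the 45 genes lay below that median. After rescaling to TPM or to total reads 40 of the 45 genes fell and 0 rose.

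**Figure D3:**
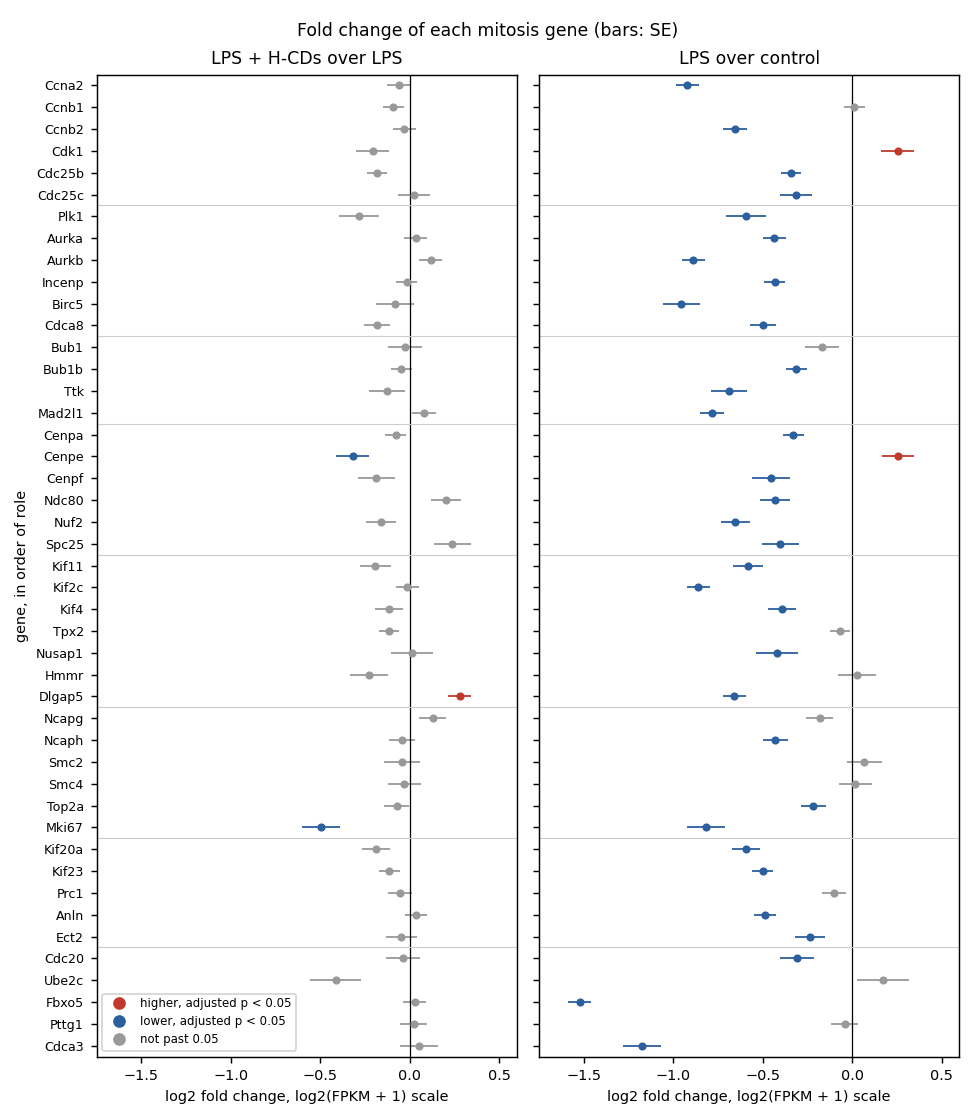
Log2 fold change of each mitosis gene on the log2(FPKM + 1) scale (x axis; points with bars of 1 SE) for LPS + H-CDs over LPS (left) and LPS over control (right), with genes down the page in order of role. Blue points fell, red points rose and grey points did not pass an adjusted p of 0.05: 2 blue (Mki67, Cenpe) and 1 red (Dlgap5) points stand on the left, and 33 blue and 2 red points on the right, the red ones being Cdk1 and Cenpe, whose direction turns after rescaling to TPM or total reads.

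Genes of mitotic exit held the most strongly lowered gene of the list. Fbxo5 (ENSMUSG00000019773, chromosome 10:5799160-5805600, minus strand), which encodes EMI1, an inhibitor of the anaphase-promoting complex that lets cyclins build up before mitosis, had 6.96, 7.39 and 6.68 FPKM in LPS, against 22.2, 21.2 and 22.7 FPKM in control. Every LPS library lay far under every control library, and the log2 fold change was -1.52 ± 0.06 (SE; limma adjusted p = 6.24e-08). Cdca3, a trigger of mitotic entry that is itself destroyed at exit, had 7.82, 8.84 and 9.33 FPKM in LPS, against 19.7, 19.8 and 23.0 FPKM in control, a change of -1.18 ± 0.11 on the log2 scale (limma adjusted p = 1.28e-05). Cdc20 fell less, with 62.8, 68.5 and 69.3 FPKM in LPS, against 76.1, 88.7 and 84.3 FPKM in control (log2 fold change -0.31 ± 0.09, limma adjusted p = 0.0206). Its call was lost without LPS replicate 1, control replicate 2 or control replicate 3. Ube2c, the ubiquitin-conjugating enzyme of the anaphase-promoting complex, averaged 57.9 ± 2.72 FPKM in LPS and 51.3 ± 4.77 in control, and Pttg1, the securin that restrains separase, 22.1 ± 1.38 in LPS and 22.7 ± 1.54 in control (SD, n = 3 each). Neither passed the test, with limma adjusted p = 0.338 and 0.671, and Pttg1 fell after rescaling to TPM (log2 fold change -0.39, limma adjusted p = 0.00188).

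Among the genes of mitotic entry the cyclins moved apart on the deposited scale. Ccna2 (cyclin A2, active in S phase and early mitosis) had 26.2, 24.0 and 23.9 FPKM in LPS, against 49.8, 44.9 and 48.1 FPKM in control, and fell by 0.92 ± 0.07 on the log2 scale (SE; limma adjusted p = 2.88e-06). Ccnb2 averaged 42.2 ± 0.623 FPKM in LPS and 66.9 ± 2.17 in control (SD, n = 3 each), a change of -0.65 ± 0.06 on the log2 scale (limma adjusted p = 2.28e-05). Ccnb1 (cyclin B1, the main partner of CDK1 at mitotic entry) averaged 47.3 ± 1.96 FPKM in LPS and 46.8 ± 1.07 in control, with overlapping libraries and a change of 0.01 ± 0.06 on the log2 scale (limma adjusted p = 0.868). This depended on scaling: Ccnb1 fell by 0.33 after rescaling to TPM and by 0.27 with total reads (limma adjusted p = 0.000839 and 0.00283). The phosphatases that activate CDK1 were lower: Cdc25b averaged 17.5 ± 0.425 FPKM in LPS and 22.4 ± 0.55 in control, and Cdc25c 9.39 ± 0.178 in LPS and 12.0 ± 1.78 in control (log2 fold change -0.34 and -0.31, limma adjusted p = 0.000722 and 0.0134). The kinase gene went the other way. Cdk1 (ENSMUSG00000019942, chromosome 10:69335146-69352938, minus strand) had 33.2, 31.3 and 33.0 FPKM in LPS, against 26.6, 25.2 and 29.3 FPKM in control, every LPS library above every control library (log2 fold change 0.26 ± 0.09, limma adjusted p = 0.0402). This direction depended on scaling, with log2 fold changes of -0.08 after rescaling to TPM and -0.02 with total reads, and the gene passed the test in 11 of 19 alternatives, losing its call without any 1 of the LPS libraries, control replicate 1 or control replicate 2.

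All 6 mitotic kinases and passenger proteins fell. Birc5 (survivin, the passenger subunit that targets the complex to centromeres) had 10.8, 11.3 and 12.3 FPKM in LPS, against 22.1, 23.1 and 24.1 FPKM in control (log2 fold change -0.95 ± 0.10, limma adjusted p = 4.69e-05). Aurkb, the kinase of that complex, averaged 25.6 ± 1.22 FPKM in LPS and 48.2 ± 2.38 in control (log2 fold change -0.89, limma adjusted p = 2.67e-06). Cdca8 (borealin) averaged 14.6 ± 0.261 FPKM in LPS and 21.0 ± 1.15 in control, a change of -0.50 (limma adjusted p = 0.0003). The smallest change in this group was that of Incenp, with 48.0, 51.2 and 49.8 FPKM in LPS, against 65.9, 70.3 and 65.8 FPKM in control (log2 fold change -0.43 ± 0.06, limma adjusted p = 0.000199), so the 4 passenger subunits were lowered to different degrees. Aurka, which works at spindle poles, averaged 42.6 ± 2.99 FPKM in LPS and 57.9 ± 1.01 in control (-0.43, limma adjusted p = 0.000331), and Plk1, which acts from entry to cytokinesis, 39.8 ± 1.32 in LPS and 60.6 ± 2.07 in control (-0.59, limma adjusted p = 0.00145).

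Of 4 checkpoint genes 3 fell. Mad2l1 (MAD2, which binds CDC20 in the checkpoint complex) had 4.67, 4.90 and 5.32 FPKM in LPS, against 9.50, 9.01 and 9.26 FPKM in control, with no overlap (log2 fold change -0.78 ± 0.07, limma adjusted p = 8.69e-06). Ttk (MPS1, the kinase that starts checkpoint signalling) averaged 5.75 ± 0.468 FPKM in LPS and 9.86 ± 0.545 in control, a change of -0.69 on the log2 scale (limma adjusted p = 0.000304). Bub1b (BUBR1) fell less, with 46.6, 47.5 and 47.5 FPKM in LPS, against 60.4, 59.4 and 56.8 FPKM in control (-0.31 ± 0.06, limma adjusted p = 0.00152). Bub1, the related kinase, averaged 33.1 ± 1.60 FPKM in LPS and 37.5 ± 4.70 in control, where libraries overlapped, and did not pass (-0.17, limma adjusted p = 0.159), but fell after rescaling to TPM (-0.52, limma adjusted p = 0.00183).

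Of 6 centromere and kinetochore genes 5 fell and 1 rose. Nuf2, the partner of NDC80 in the microtubule-binding complex, had 7.88, 7.22 and 7.68 FPKM in LPS, against 12.6, 11.2 and 13.8 FPKM in control (log2 fold change -0.65 ± 0.08, limma adjusted p = 0.000122). The other subunits of that complex were lower too: Ndc80 averaged 3.18 ± 0.275 FPKM in LPS and 4.63 ± 0.415 in control, and Spc25 8.19 ± 1.05 in LPS and 11.1 ± 1.00 in control (-0.43 and -0.40, limma adjusted p = 0.00188 and 0.00888). Cenpf, a large kinetochore protein, and Cenpa, the histone H3 variant of centromeres, changed by -0.45 and -0.33 (limma adjusted p = 0.00498 and 0.00135). Cenpe (ENSMUSG00000045328, chromosome 3:135212537-135273611, plus strand), the kinesin that carries chromosomes to the spindle equator, was higher. It had 18.8, 16.3 and 16.5 FPKM in LPS, against 16.4, 12.9 and 13.4 FPKM in control (log2 fold change 0.26 ± 0.09, limma adjusted p = 0.0365). The control library with 16.4 FPKM lay within the range of LPS. This call was kept in 10 of 19 alternatives and lost without LPS replicate 1 or 3, control replicate 2 or 3, or LPS + H-CDs replicate 2, and the log2 fold change was -0.07 after rescaling to TPM and -0.01 with total reads.

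Of 7 spindle genes 5 fell. Kif2c (MCAK, a kinesin that takes microtubules apart) had 9.55, 8.71 and 9.71 FPKM in LPS, against 17.5, 17.6 and 18.04 FPKM in control, and fell by 0.86 ± 0.06 on the log2 scale (SE; limma adjusted p = 3.42e-06). Dlgap5 (HURP, which stabilises spindle fibres at kinetochores) had 4.99, 5.42 and 5.53 FPKM in LPS, against 8.64, 9.24 and 8.99 FPKM in control (-0.66 ± 0.07, limma adjusted p = 2.43e-05). Kif11 (Eg5), the motor that pushes spindle poles apart, averaged 17.4 ± 0.183 FPKM in LPS and 26.7 ± 3.37 in control, a change of -0.58 (limma adjusted p = 0.000304). Smaller changes were seen for Nusap1, a microtubule-bundling protein, at -0.42, and Kif4, a chromosome-bound kinesin, with 7.93, 7.88 and 6.61 FPKM in LPS, against 10.4, 10.0 and 9.83 FPKM in control (-0.39 ± 0.08; limma adjusted p = 0.0133 and 0.00209). The call for Nusap1 was lost without control replicate 3. Tpx2, the activator of Aurora A, and Hmmr, a spindle pole protein, averaged 42.9 ± 1.08 and 15.1 ± 0.708 FPKM in LPS, against 45.0 ± 1.91 and 14.9 ± 1.85 FPKM in control, and did not pass (limma adjusted p = 0.337 and 0.849). Tpx2 passed as lower after rescaling to TPM and with total reads (-0.41 and -0.35, limma adjusted p = 0.000249 and 0.000527).

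Of the 8 roles, chromosome structure had the median log2 fold change nearest 0, at -0.20, and 3 of its 6 genes fell. Mki67 (ENSMUSG00000031004, chromosome 7:135689784-135716361, minus strand) had 44.9, 42.6 and 39.9 FPKM in LPS, against 86.3, 72.5 and 69.1 FPKM in control (log2 fold change -0.82 ± 0.11, limma adjusted p = 0.000145). Top2a (topoisomerase II alpha, which untangles sister chromatids) had 54.4, 51.9 and 51.2 FPKM in LPS, against 66.5, 58.6 and 58.6 FPKM in control (-0.22 ± 0.07, limma adjusted p = 0.0237); its call was lost without LPS replicate 2, LPS replicate 3 or control replicate 1. Among the condensin subunits, which compact chromosomes, Ncaph averaged 13.8 ± 0.357 FPKM in LPS and 18.9 ± 0.929 in control (-0.43, limma adjusted p = 0.000747). The other subunits did not pass, with log2 fold changes of -0.18 for Ncapg, 0.07 for Smc2 and 0.02 for Smc4 (limma adjusted p = 0.065, 0.591 and 0.883), and their libraries overlapped. The structural core of condensin, Smc2 and Smc4, stood at 33.4 ± 3.91 and 36.6 ± 2.47 FPKM in LPS, against 31.7 ± 3.59 and 36.2 ± 4.25 FPKM in control (SD, n = 3 each). After rescaling, Smc4 passed as lower (-0.33 in TPM and -0.26 with total reads, limma adjusted p = 0.0165 and 0.0333) and so did Ncapg (-0.53 and -0.45, limma adjusted p = 0.000593 and 0.000708).

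Of 5 cytokinesis genes 4 fell. Kif20a (MKLP2, a kinesin that brings passenger proteins to the spindle midzone) had 17.2, 18.4 and 19.0 FPKM in LPS, against 29.8, 28.4 and 25.7 FPKM in control (log2 fold change -0.59 ± 0.08, limma adjusted p = 0.000165). Kif23 (MKLP1), the kinesin of centralspindlin, averaged 16.1 ± 0.297 FPKM in LPS and 23.2 ± 1.36 in control, and Anln (anillin), the scaffold of the contractile ring, 17.8 ± 0.672 in LPS and 25.3 ± 1.67 in control (-0.50 and -0.48, limma adjusted p = 6.44e-05 and 0.000124). Ect2, the activator of RhoA at the cleavage site, had 15.2, 13.7 and 13.0 FPKM in LPS, against 18.005, 15.1 and 16.8 FPKM in control, so that the groups overlapped; its call (-0.23 ± 0.08, limma adjusted p = 0.0412) held in 11 of 19 alternatives and was lost without LPS replicate 2, LPS replicate 3, control replicate 1, control replicate 3 or LPS + H-CDs replicate 3. Prc1, which bundles midzone microtubules, averaged 8.73 ± 0.311 FPKM in LPS and 9.44 ± 0.79 in control and did not pass (-0.10, limma adjusted p = 0.244), but fell after rescaling to TPM (-0.44, limma adjusted p = 0.0019). In a GENCODE annotation, exons of 13 mitosis genes overlap another gene on the genome, most of all Kif20a with Cdc23 (29.3% of its exon bases), Ube2c with Tnnc2 (22.8%) and Kif4 with Pdzd11 (15.1%). The strand setting of the counting is not given, so their levels are less certain. Kif20a has 4338 exon bases there and a deposited length of 3796, so its share need not hold for the counted bases. For Ube2c and Kif4 these lengths are equal. Reads assigned to pseudogene copies were few, the most being 285 reads over all libraries for Ccnb1-ps, against 27122 for Ccnb1. Among the 32 genes without such overlap, 23 fell, 2 rose and 7 did not pass.

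**Figure D4:**
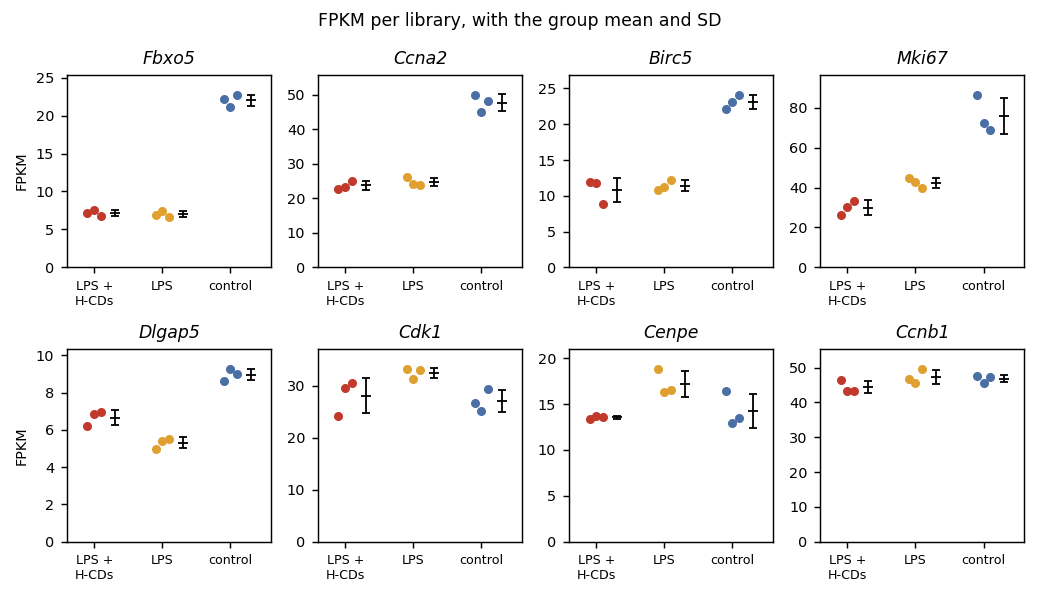
FPKM (y axis, from 0) of 8 mitosis genes in each library of LPS + H-CDs (red), LPS (orange) and control (blue), with the group mean and SD in black. For Fbxo5, Ccna2, Birc5 and Mki67 every LPS + H-CDs and LPS library lies under every control library; for Dlgap5 the LPS + H-CDs libraries lie between the other groups, and for Ccnb1 all groups overlap on this scale.

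LPS + H-CDs against LPS asks what the supplement changed in stimulated cells. Few mitosis genes differed: 1 rose, 2 fell and 42 did not pass, against 6.54% higher and 9.05% lower over all tested genes, so the share of mitosis genes called, 2.22% higher and 4.44% lower, was below that of all genes in both directions. The split over all genes, 766 higher and 1060 lower, was 1195 and 690 after division by total reads. The median log2 fold change of the mitosis genes was -0.05, against -0.01 over all tested genes, and 32 of 45 values were negative, against 51.8% of all tested genes. The sign of the mitosis median depends on the scaling: it was -0.01 after rescaling to TPM, against 0.02 over all tested genes, and 0.03 with total reads, against 0.06. At an unadjusted p under 0.05 in limma, 3 were higher and 8 lower, against 3561 of the 11707 tested genes in either direction. The groups did not overlap for 14 of the 45 genes with lower values and 4 of the 45 with higher values. Over the 11707 tested genes these were 2394 (20.4%) and 1915 (16.4%). By this measure the share of mitosis genes was above that of all genes for lower values and below it for higher values. With edgeR and with DESeq2 on the recovered reads, 1 rose and 3 fell, the added gene being Ube2c. Over all tested genes edgeR called 1059 higher and 1064 lower, and DESeq2 called 997 higher and 1332 lower.

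Mki67 was the gene with the largest decrease. It had 26.3, 30.3 and 33.4 FPKM in LPS + H-CDs, against 44.9, 42.6 and 39.9 FPKM in LPS, with no overlap, and changed by -0.49 ± 0.11 on the log2 scale (SE; limma adjusted p = 0.0142). The lowest of these values belongs to LPS + H-CDs replicate 1. Without that library the log2 fold change was -0.40 (limma adjusted p = 0.0351), and the call was kept in 17 of 19 alternatives but lost without LPS replicate 1 or LPS replicate 2 (limma adjusted p = 0.0570 and 0.0527). In the authors' deposited table Mki67 had a log2 fold change of -0.49 with an adjusted p of 3.00e-06; that table comes from the same reads.

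Cenpe fell and Dlgap5 rose. Cenpe had 13.3, 13.7 and 13.6 FPKM in LPS + H-CDs, against 18.8, 16.3 and 16.5 FPKM in LPS (log2 fold change -0.32 ± 0.09, limma adjusted p = 0.0439). All LPS + H-CDs libraries were lower than all LPS libraries, but the call was kept in 8 of 19 alternatives, with limma adjusted p = 0.0923 without LPS + H-CDs replicate 1; the loss of any 1 LPS or LPS + H-CDs library, or of control replicate 3, ended it, as did rescaling to TPM or total reads (-0.29 and -0.24, limma adjusted p = 0.113 and 0.111). Dlgap5 (ENSMUSG00000037544, chromosome 14:47387779-47418407, minus strand) had 6.20, 6.83 and 6.96 FPKM in LPS + H-CDs, against 4.99, 5.42 and 5.53 FPKM in LPS, again with no overlap (0.28 ± 0.07, limma adjusted p = 0.0205). Its log2 fold change was 0.32 without LPS + H-CDs replicate 1 (limma adjusted p = 0.0166), and the call was lost without LPS + H-CDs replicate 2, LPS + H-CDs replicate 3, LPS replicate 1 or LPS replicate 2. In the authors' deposited table both genes were called in the same directions, with log2 fold changes of -0.33 and 0.34 and adjusted p of 0.00149 and 0.0161.

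The other entry genes and kinases did not pass. Cdk1 had 24.2, 29.6 and 30.5 FPKM in LPS + H-CDs, against 33.2, 31.3 and 33.0 FPKM in LPS (log2 fold change -0.21 ± 0.09, limma adjusted p = 0.168). Every LPS + H-CDs library was below every LPS library, and replicate 1 was the lowest; without it the log2 fold change was -0.11. Cdc25b had 16.2, 15.0 and 14.6 FPKM in LPS + H-CDs, against 17.6, 17.0 and 17.8 FPKM in LPS (-0.18 ± 0.06, limma adjusted p = 0.0592), and of the 19 alternatives passed only that without LPS + H-CDs replicate 1 (-0.22, limma adjusted p = 0.0320). Plk1 had 26.3, 35.9 and 36.3 FPKM in LPS + H-CDs, against 39.3, 41.3 and 38.7 FPKM in LPS, where replicate 1 again was lowest (-0.28 ± 0.11, limma adjusted p = 0.121, and -0.14 without it). For the cyclins the LPS + H-CDs and LPS means were close, at 23.7 and 24.7 FPKM for Ccna2, 44.3 and 47.3 FPKM for Ccnb1 and 41.3 and 42.2 FPKM for Ccnb2. The passengers went in several directions, with log2 fold changes of 0.12 for Aurkb, -0.02 for Incenp, -0.08 for Birc5 and -0.18 for Cdca8, none past the threshold.

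The size of the change in Ube2c depended on a single library. The gene had 33.0, 49.2 and 49.5 FPKM in LPS + H-CDs, against 54.7, 59.2 and 59.7 FPKM in LPS. Every LPS + H-CDs library was below every LPS library, and the log2 fold change of -0.41 ± 0.14 did not pass (limma adjusted p = 0.0871). Ube2c was lowest in LPS + H-CDs replicate 1, where the mitochondrial share was also low. Without that library the log2 fold change was -0.22 (limma adjusted p = 0.110). The authors' deposited table called Ube2c lower (log2 fold change -0.38, adjusted p = 0.0182). Fbxo5, the gene lowered most by LPS, did not pass here. It had 7.16, 7.60 and 6.73 FPKM in LPS + H-CDs, against 6.96, 7.39 and 6.68 FPKM in LPS (0.03 ± 0.06, limma adjusted p = 0.821). Cdc20 had 74.4, 61.9 and 59.8 FPKM in LPS + H-CDs, against 62.8, 68.5 and 69.3 FPKM in LPS, with overlap and a change of -0.04 ± 0.09 on the log2 scale (limma adjusted p = 0.838).

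Within the kinetochore complex of NDC80 the subunits differed in sign. Nuf2 averaged 6.70 ± 0.499 FPKM in LPS + H-CDs and 7.59 ± 0.337 in LPS, whereas Ndc80 averaged 3.81 ± 0.253 in LPS + H-CDs and 3.18 ± 0.275 in LPS, and Spc25 9.83 ± 0.963 in LPS + H-CDs and 8.19 ± 1.05 in LPS (SD, n = 3 each). None of these passed, with log2 fold changes of -0.16, 0.20 and 0.24 (limma adjusted p = 0.231, 0.138 and 0.155). Among the spindle genes, the motor Kif11 averaged 15.1 ± 0.406 FPKM in LPS + H-CDs and 17.4 ± 0.183 in LPS without overlap (-0.19, limma adjusted p = 0.162), and Hmmr 12.8 ± 1.64 in LPS + H-CDs and 15.1 ± 0.708 in LPS (-0.23, limma adjusted p = 0.183). Without LPS + H-CDs replicate 1 the values of Nuf2 and Hmmr were -0.11 and -0.13. The cytokinesis kinesins Kif20a and Kif23 were below LPS in every LPS + H-CDs library, at -0.19 and -0.11 (limma adjusted p = 0.138 and 0.219). All log2 fold changes of the 42 genes that did not pass lay between -0.41 (Ube2c) and 0.24 (Spc25). Without LPS + H-CDs replicate 1 the median over the 45 genes was -0.04, 28 values were negative, and Dlgap5, Cdc25b and Mki67 passed. Over the 11707 tested genes the median was then -0.02, 6216 values were negative, and 609 genes were called higher and 889 lower.

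LPS + H-CDs against control shares its libraries with both comparisons, so its values are given beside them and are not independent of them. Here 33 genes fell, 0 rose and 12 did not pass, against 25.4% lower and 26.7% higher over all tested genes. At an unadjusted p under 0.05 in limma 34 were lower and 0 higher, against 6742 of the 11707 tested genes in either direction. Called higher by edgeR and DESeq2 were 0 mitosis genes as well, against 3177 and 3165 of all tested genes. The median log2 fold change was -0.41, against 0.01 over all genes, and 43 of 45 values were negative. Libraries of LPS + H-CDs and control did not overlap for 34 of the 45 genes with lower values and 0 of the 45 with higher values. Over the 11707 tested genes these were 3276 (28.0%) and 3474 (29.7%). The split over all genes was 3120 higher and 2970 lower as deposited, and 1651 and 5338 after rescaling to TPM, where 44 mitosis genes fell, and 42 fell with total reads. Without LPS + H-CDs replicate 1, 30 mitosis genes fell, the calls for Ect2, Ndc80 and Nusap1 being lost, and 2893 of all tested genes fell. Of the genes lowered by LPS, 32 were also lower in this comparison, 30 of them with no call between LPS + H-CDs and LPS. As deposited, Spc25 passed as lower with LPS alone and not with H-CDs (log2 fold change -0.40 in LPS and -0.16 in LPS + H-CDs, each against control), and Tpx2 with H-CDs and not with LPS alone (-0.07 in LPS and -0.18 in LPS + H-CDs, each against control); neither passed between LPS + H-CDs and LPS (limma adjusted p = 0.155 and 0.197). After rescaling to TPM or total reads each passed as lower in both comparisons with control, Spc25 at -0.47 and -0.35 in LPS + H-CDs (limma adjusted p = 0.00416 and 0.0157). The call for Tpx2 was lost without LPS + H-CDs replicate 2 or control replicate 3, and those for Cdc25c, Ndc80, Nusap1 and Ect2 were likewise lost when certain single libraries were left out.

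The genes called between the treated groups stood as follows against control. Mki67 changed by -1.31 ± 0.11 with LPS + H-CDs and by -0.82 ± 0.11 with LPS, and was the only 1 of the 45 genes lower in every comparison. Dlgap5 changed by -0.38 ± 0.07 with LPS + H-CDs and by -0.66 ± 0.07 with LPS, so that its LPS + H-CDs level lay between the other groups. Cenpe changed by -0.06 ± 0.09 with LPS + H-CDs, not past the threshold (limma adjusted p = 0.598), and by 0.26 ± 0.09 with LPS. After rescaling to TPM or total reads it passed as lower in LPS + H-CDs (-0.37 and -0.26, limma adjusted p = 0.0161 and 0.0397). Cdk1, called higher with LPS, likewise differed from control by 0.05 ± 0.09 with LPS + H-CDs (limma adjusted p = 0.684), and by -0.26 after rescaling to TPM (limma adjusted p = 0.0432). As deposited, the other 9 genes passed in no comparison, namely Ccnb1, Bub1, Hmmr, Ncapg, Smc2, Smc4, Prc1, Ube2c and Pttg1. After rescaling to TPM or total reads, 8 of these 9, all but Smc2, passed as lower in at least 1 comparison with control.

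Other genes of the cell cycle give the setting. Of 88 further mitosis genes, 57 fell, 5 rose and 26 did not pass for LPS against control, with a median log2 fold change of -0.40. Among them Psrc1, a microtubule protein, averaged 3.65 ± 0.627 FPKM in LPS and 10.8 ± 0.405 in control, and Wee1, the kinase that restrains CDK1, 5.86 ± 0.219 in LPS and 14.9 ± 1.04 in control (log2 fold change -1.35 and -1.21, limma adjusted p = 2.47e-06 and 8.52e-07). Zwint, which links the checkpoint to kinetochores, rose, with 33.1, 32.0 and 33.9 FPKM in LPS, against 17.6, 17.9 and 18.1 FPKM in control (0.85 ± 0.05, limma adjusted p = 1.26e-06). Between LPS + H-CDs and LPS, 3 of the 88 rose and 85 did not pass. They were Zwint, with 46.3, 45.6 and 42.6 FPKM in LPS + H-CDs (0.43 ± 0.05 over LPS, limma adjusted p = 0.00101), Anapc4, a subunit of the anaphase-promoting complex (0.23, limma adjusted p = 0.0415), and Kifc5b, a kinesin close in sequence to Kifc1 whose reads may be shared (0.41, limma adjusted p = 0.0432). Against control, 57 fell in LPS + H-CDs and 4 rose.

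Among 24 regulators of G2/M transcription, 12 fell, 2 rose and 10 did not pass for LPS against control. Foxm1, the activator of the late cell cycle genes, had 9.44, 8.82 and 9.09 FPKM in LPS, against 26.1, 26.3 and 23.4 FPKM in control (log2 fold change -1.38 ± 0.10, limma adjusted p = 2.52e-06). The activators E2f1 and E2f2 averaged 8.57 ± 0.212 and 1.68 ± 0.153 FPKM in LPS, against 23.3 ± 1.45 and 11.6 ± 0.435 FPKM in control, and the repressor E2f8 averaged 3.61 ± 0.189 FPKM in LPS and 15.6 ± 1.13 in control (-1.34, -2.24 and -1.85, limma adjusted p = 3.27e-07, 6.96e-08 and 1.41e-07). Cdkn1a, which encodes the CDK inhibitor p21, rose, with 201, 224 and 215 FPKM in LPS, against 61.6, 75.0 and 71.0 FPKM in control (1.61 ± 0.09, limma adjusted p = 3.33e-07). With H-CDs, 4 of the 24 rose and 3 fell relative to LPS, among them Cdkn1a at 267 ± 16.3 FPKM in LPS + H-CDs and 213 ± 11.7 in LPS (0.32, limma adjusted p = 0.036). Lin37, a MuvB subunit, and E2f2 rose as well (0.55 and 0.43, limma adjusted p = 0.0313 and 0.0154), whereas E2f4, the E2F of the repressive DREAM complex, and E2f8 fell (-0.32 and -0.34, limma adjusted p = 0.0102 and 0.0286). Foxm1 had 6.62, 6.84 and 8.82 FPKM in LPS + H-CDs and did not pass against LPS (-0.27 ± 0.10, limma adjusted p = 0.0949).

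Of 46 genes of DNA replication and S phase, 44 fell, 1 rose and 1 did not pass for LPS against control, with a median log2 fold change of -0.84. Tk1 (thymidine kinase) averaged 7.10 ± 0.233 FPKM in LPS and 41.6 ± 2.08 in control, and Cdc6, which licenses replication origins, 4.43 ± 0.157 in LPS and 15.0 ± 0.275 in control (-2.40 and -1.56, limma adjusted p = 1.61e-09 and 1.63e-08). The median was lower than that of the mitosis genes by description; the difference between the lists was not tested. Between LPS + H-CDs and LPS, 2 of the 46 rose and 1 fell. Rpa1, which coats single-stranded DNA, had 24.7, 24.0 and 23.9 FPKM in LPS + H-CDs, against 17.1, 16.3 and 16.2 FPKM in LPS (0.53 ± 0.05, limma adjusted p = 0.00024), Gins4, a subunit of the replicative helicase, changed by 0.33, and Uhrf1, which maintains DNA methylation at forks, by -0.37 (limma adjusted p = 0.0392 and 0.00481). In LPS + H-CDs against control, 44 of 46 fell and 2 did not pass, and of the 24 regulators 12 fell and 1 rose.

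**Figure D5:**
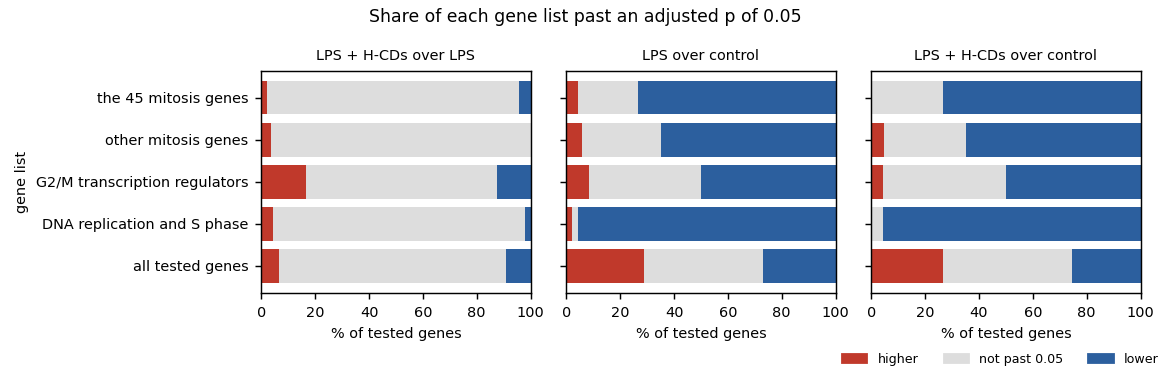
Percentage of the tested genes (x axis) of each gene list (rows) that rose (red), did not pass (grey) or fell (blue) at an adjusted p of 0.05, for LPS + H-CDs over LPS, LPS over control and LPS + H-CDs over control. The mitosis genes are 73.3% blue in both comparisons with control and 4.44% blue for LPS + H-CDs over LPS, while all tested genes are 26.8%, 25.4% and 9.05% blue in LPS over control, LPS + H-CDs over control and LPS + H-CDs over LPS.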

How the data were processed

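RNA sequencing of RAW 264.7 cells gave 9 libraries, 3 each of LPS + H-CDs, LPS and control, grouped by their labels. The authors deposited FPKM for 54532 genes, named so in the deposited table. A second table holds, per the file headers, a signal per library scaled between libraries, the authors' log2 ratio of LPS + H-CDs to LPS and its p-value for 21576 genes. Its columns write CD for the supplement, taken here as H-CDs since the remaining groups have other names. The genome build was GRCm38 (mm10) per the submitters' processing notes; for aligner, counting tool, strand setting, normalization and test the entry is "not given in the sources used here".

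FPKM multiplied by gene length gave whole reads for 100% of values within a tolerance of 0.01, so read counts were recovered from the deposited FPKM; intervals from such counts cover counting error only. Genes with at least 1 FPKM in at least 3 libraries were tested (11707) with limma 3.58.1 (R 4.3.3) and an intensity trend on log2(FPKM + 1), in 1 fit of 9 libraries with 6 residual degrees of freedom, 2-sided, with Benjamini-Hochberg adjustment per comparison at 0.05. Fold changes on this scale understate the change of low genes. For a single gene, exact permutation of 3 against 3 libraries gives p-values of 0.1 or more. The fit was tested on simulated data. Alternatives were a pseudocount of 0.1, a filter of 5 FPKM or none, rescaling to TPM or total reads, a replicate block, 2 groups only, no intensity trend, edgeR 4.0.16 and DESeq2 1.42.0 on recovered reads, and leaving out each library.

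The genes, their roles and the other lists were chosen with earlier results of these data known. Values per library are given for the highest and lowest called gene of each role in the comparisons of LPS + H-CDs with LPS and of LPS with control (the gene with the highest mean where none passed). From other lists up to 4 genes per comparison by adjusted p could be named, and further values were chosen after they were seen. Promoters were to be printed for up to 5 genes with TTTGAA in order of adjusted p, leaving out chromosome 18.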

Additional observations from a re-analysis of the deposited data

How the results depend on the processing

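The fall of most of the 45 genes with LPS kept its direction under the alternatives run, though not all of these could change it. Limits lie mainly in scaling and in single libraries. For LPS + H-CDs against LPS, 1 mitosis gene was lower without a filter on low values and without the intensity trend. That count was also 1 after rescaling to TPM and with total reads. Over all genes, 836 of 24685 were lower without a filter and 985 of 11707 without the intensity trend. After rescaling to TPM 690 of all genes were lower. With total reads 1195 were higher and 690 lower, and the median of the mitosis genes was 0.0306. For LPS against control, 0 mitosis genes were higher without a filter, after rescaling to TPM or with total reads. With edgeR and DESeq2 these were 2 and 2, and with 2 groups only 1. The counts over all genes were 3451 higher without a filter (of 24685), 3181 with edgeR, 3337 with DESeq2 and 3431 with 2 groups only. Over all genes 1676 were higher and 5657 lower after rescaling to TPM, and 1904 and 5191 with total reads, and the medians of the mitosis genes were -0.79 and -0.68. Against control, LPS + H-CDs gave counts of 1651 and 5338, and 2033 and 4528, with medians of -0.74 and -0.61. Mitosis genes lower than control were then 40 and 40 in LPS and 44 and 42 in LPS + H-CDs. The cause was not tested.

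Leaving out 1 library gave, for LPS + H-CDs against LPS, 0 to 1 mitosis genes higher and 0 to 2 lower, 446 to 714 and 576 to 1064 of all genes, and a median of -0.07 to -0.04; none of the calls remained without LPS replicate 1 or LPS replicate 2. For LPS against control it gave 0 to 2 higher and 30 to 34 lower, 2934 to 3521 and 2802 to 3267 of all genes, and -0.45 to -0.38. In LPS + H-CDs against control it gave 0 higher and 29 to 34 lower, 2774 to 3044 and 2588 to 2893, and -0.45 to -0.39. Replicate numbers were not taken to pair the libraries, as deviations of same-numbered libraries correlated at -0.12 to 0.20. Same-numbered LPS and control libraries correlated at 0.20, 0.06 and 0.09, and differently numbered ones at -0.17 to 0.07. Whether those groups were paired is therefore not settled. With a replicate block, 1 mitosis gene was higher and 2 lower for LPS + H-CDs against LPS, 2 and 33 for LPS against control, where Ncapg was gained and Ect2 lost, and 0 and 32 for LPS + H-CDs against control, where Ndc80 was lost. Over all tested genes the block gave, in the same order, 603 higher and 882 lower, 3255 and 3021, and 3005 and 2831.

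Genes near 0 change on the deposited scale turned sign. For LPS + H-CDs against LPS the log2 fold changes were 0.0072 (Ccnb2), 0.0225 (Incenp), 0.0231 (Kif2c) and 0.0017 (Cdc20) after rescaling to TPM. With total reads they were 0.0209 (Ccna2), 0.0490 (Ccnb2), 0.0642 (Incenp), 0.0333 (Bub1b), 0.0600 (Kif2c), 0.0075 (Top2a), 0.0306 (Ect2) and 0.0440 (Cdc20), and with edgeR 0.0129 (Incenp) and 0.0136 (Kif2c). Leaving out 1 library gave -0.0801 to 0.0245 for Ccnb2, -0.0421 to 0.0184 for Incenp, -0.1509 to 0.0445 for Birc5, -0.0574 to 0.0312 for Kif2c, -0.0946 to 0.010 for Ect2, -0.1322 to 0.0233 for Cdc20 and -0.0109 to 0.0659 for Fbxo5. The LPS response against control was -0.0827 (Cdk1) and -0.0728 (Cenpe) after rescaling to TPM, and -0.0238 and -0.0145 with total reads. Ccnb1, Smc4, Hmmr, Smc2 and Ube2c turned as well, to -0.33, -0.33, -0.31, -0.27 and -0.17 in TPM and to -0.27, -0.26, -0.24, -0.21 and -0.11 with total reads, Ccnb1 and Smc4 then being called lower. In LPS + H-CDs against control, Cdk1 was at -0.2551 and -0.1507 under these and at -0.0111 to 0.1498 with 1 library left out, and Cenpe at -0.1235 to 0.0360. For the 18 genes chosen by rule, 943 of 1026 values kept direction and side of the threshold, 48 lost their call, 33 turned and 2 gained one. Over all 45 genes these were 2367 of 2562 values, with 65 lost, 91 turned and 39 gained. These totals include alternatives in which the log2 fold change could not move and only the adjusted p could. Such were the filter of 5 FPKM or none, the replicate block, 2 groups only and no intensity trend. Leaving out a library of the group outside the comparison was another. Each gene had 186 or more reads per library, and counting error was not separated from the spread between 3 libraries.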
